A study of Homo sapiens with 4 samples.

Results

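The receptors EGFR, ERBB2 and ERBB3, the ligands AREG, EREG, HBEGF, TGFA, BTC and EPGN, and the receptor inhibitor ERRFI1 were followed in RNA sequencing of a cell line labelled as lung squamous cell carcinoma of human origin. These 10 genes were taken by symbol from the 58735 genes of the deposited table, and each symbol matched 1 row. The design text mentions SK-MES-1, an established lung squamous carcinoma line, and SK-MES-1-RR, a derivative resistant to radiotherapy. The labels assign no library to either line and give for each only a dose in its library name, 0 Gy or 30 Gy (gray measures the radiation energy absorbed), with 2 libraries per dose. Neither the fractionation of the dose nor the time from irradiation to RNA extraction is given, so a dose effect and a difference between the lines cannot be told apart, and the groups are called 0 Gy and 30 Gy. No source used here says that replicates came from separate cultures, so each p-value reflects just the spread among these 4 samples, which may be technical.

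The ERBB receptors are membrane tyrosine kinases that pair up and phosphorylate each other when a ligand binds, and then drive the RAS-ERK and PI3K-AKT pathways in epithelial cells. EGFR binds the EGF-like ligands measured here, ERBB3 binds neuregulins and has little kinase activity of its own, and ERBB2 has no known ligand and serves as a partner. The ligands are made as membrane-bound precursors that ADAM proteases release. ERRFI1, also called MIG6, is induced by growth factor signalling, binds the active kinase domain and shuts the receptor off.

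At 30 Gy the inhibitor ERRFI1, the main ligand EREG and the receptor EGFR were lower than at 0 Gy, while no member passed the test in the other direction. The 3 calls were not equally firm: of 18 other settings, ERRFI1 kept its call in 16, EREG in 9 and EGFR in 5. ERRFI1 fell 2.28-fold, EREG 1.34-fold and EGFR 1.27-fold by the ratio of mean FPKM (fragments per kilobase of gene, scaled to sequencing depth). Of the 10 members, 8 reached 1 FPKM in 2 or more libraries and were tested within a limma fit of all 13379 such genes on log2(FPKM + 1), with Benjamini-Hochberg adjustment over all of them and a threshold of 0.05. Of these 8 members 3 were lower and 0 were higher. Of all tested genes 9.06% were called lower and 10.8% higher, or 19.8% in either direction. Without adjustment (limma p under 0.05, which 37.7% of all tested genes reached), 3 members were lower and 1, HBEGF, was higher, and limma's voom on recovered reads called 3 lower and 0 higher, where it called 31.3% of all tested genes (14.9% lower and 16.4% higher). In 6 of the 8 (75%) all libraries of one dose lay beyond those of the other, 5 lower and 1 higher at 30 Gy, against 65.2% of all tested genes (32.3% lower and 32.9% higher). The members' median log2 change was -0.22, against -0.00068 over all tested genes.

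Each gene's fragments could be recovered from its FPKM as whole reads, with totals of 15920861 to 17261121 per library. Libraries of the same dose were more alike (Pearson's r across the tested genes 0.981 and 0.984) than libraries of different doses (0.956 to 0.958). Of 6 simple epithelial markers KRT7 rose and KRT19 fell at 30 Gy, from 96.2 and 95.3 FPKM to 221 and 201 FPKM and from 165 and 159 FPKM to 92.8 and 84.1 FPKM (limma adjusted p = 0.00232 and 0.00424). KRT8, at 38.3 to 46.4 FPKM, KRT18, at 35.7 to 41.2 FPKM, and EPCAM, at 3.42 to 5.91 FPKM, did not pass, and CDH1, the epithelial cadherin, had 0 to 7 reads per library. Of 7 squamous and basal markers, KRT5, KRT6A and DSG3 had 0 reads in every library and KRT14 had 0 to 4. SOX2 had 11 and 4 reads at 0 Gy and 22 and 19 reads at 30 Gy, below the filter. The desmosomal protein PKP1 stood at 14.8 to 18.3 FPKM and TP63, the squamous lineage factor, at 3.19 to 4.14 FPKM. PKP1 and TP63 were lower in both 30 Gy libraries, as were 32.3% of all tested genes, and did not pass (limma adjusted p = 0.114 and 0.102). Of 5 fibroblast markers 3 were higher in both 30 Gy libraries (COL1A1, PDGFRB and LUM), as were 32.9% of all tested genes; COL1A1 and PDGFRB did not pass (adjusted p = 0.0795 and 0.0535) and LUM was below the filter. The list had a summed level of 62.8 and 63.2 FPKM at 0 Gy and 78.6 and 72.4 FPKM at 30 Gy, DCN had 0 reads in each library and COL1A2 had 0 to 1. Leukocyte markers summed to at most 0.688 FPKM and endothelial markers to at most 0.121 FPKM in each library. The part of such genes in the results was not tested, and in bulk RNA fewer cells of a type and less RNA per cell cannot be told apart.

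**Figure D1:**
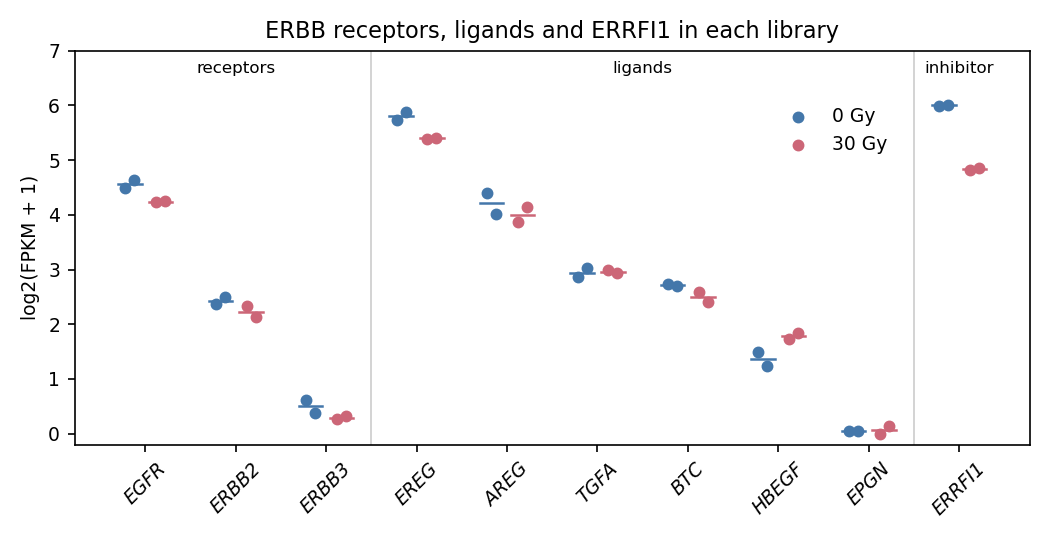
Expression of the 10 members in each library, as log2(FPKM + 1), with points for single libraries and bars for the mean of the 2 libraries of a dose (blue 0 Gy, red 30 Gy). EREG and ERRFI1 stand highest, ERBB3 and EPGN lie near 0, and the clearest gap between the doses is that of ERRFI1 (63.3 FPKM at 0 Gy and 27.7 FPKM at 30 Gy).

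The sequence just upstream of a gene shows how differently these genes are built. The 250 bases before the RefSeq transcript start (GRCh38.p14, the coding strand, 5′ to 3′) are shown for the 3 members that fell and for AREG, the neighbour of EREG on chromosome 4. Capitals mark matches, on either strand, to TGANTCA (the AP-1 element), TGACGTCA (the cyclic AMP response element), GGGCGG (the GC box, which reads CCGCCC on the other strand) or TATAAA (the TATA box).
EGFR: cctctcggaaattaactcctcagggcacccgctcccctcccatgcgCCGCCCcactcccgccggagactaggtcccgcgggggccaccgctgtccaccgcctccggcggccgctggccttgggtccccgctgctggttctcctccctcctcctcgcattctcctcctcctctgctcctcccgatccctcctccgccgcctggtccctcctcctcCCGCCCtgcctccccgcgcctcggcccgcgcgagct
ERRFI1: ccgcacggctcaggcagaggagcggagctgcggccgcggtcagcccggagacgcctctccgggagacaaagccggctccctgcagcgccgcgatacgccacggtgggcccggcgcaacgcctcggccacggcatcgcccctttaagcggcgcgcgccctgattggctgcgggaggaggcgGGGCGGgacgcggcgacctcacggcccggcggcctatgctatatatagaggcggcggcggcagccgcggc
EREG: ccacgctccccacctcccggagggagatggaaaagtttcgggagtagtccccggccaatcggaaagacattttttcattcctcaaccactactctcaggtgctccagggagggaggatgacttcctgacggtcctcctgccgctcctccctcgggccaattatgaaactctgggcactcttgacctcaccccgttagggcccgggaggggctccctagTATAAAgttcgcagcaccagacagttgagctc
AREG: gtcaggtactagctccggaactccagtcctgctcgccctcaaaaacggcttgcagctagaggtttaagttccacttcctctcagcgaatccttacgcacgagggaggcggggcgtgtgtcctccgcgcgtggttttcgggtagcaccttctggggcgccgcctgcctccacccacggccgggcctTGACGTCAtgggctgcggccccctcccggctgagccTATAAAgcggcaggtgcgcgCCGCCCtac
These windows lie at chr7:55018767-55019016 (plus strand), chr1:8026310-8026559 (minus strand), chr4:74364895-74365144 (plus strand) and chr4:74444886-74445135 (plus strand).

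The EGFR window was 73.6% G and C and that of ERRFI1 75.2%, against a median of 58.0% over 35116 RefSeq promoter windows. EGFR held 2 GC boxes, 204 and 36 bases before the start, and ERRFI1 held 1 at 70 bases; neither held TATAAA in this stretch. A GC box was present in 42.6% of all windows. Of the ligand genes of the chromosome 4 cluster, EREG held TATAAA 32 bases before its start, and AREG and EPGN 29 bases before theirs. BTC held none of the 4 motifs there. Just these exact letters were searched, and near their ends the ERRFI1 window holds tatatata and the BTC window ataaata. A missing TATAAA is therefore not read as a missing TATA box. TATAAA occurred in 10.7% of all windows. AREG also held TGACGTCA 65 bases before its start, a motif found in 1.65% of all windows. Among the 9 members with a window in the table, ERBB2 alone held TGANTCA, found in 6.57% of windows, and HBEGF held 5 GC boxes, of which the pair at 63 and 58 bases share an end base; no matches to different motifs overlapped in the windows printed above. A match is a description of these letters and does not show that a factor binds there.

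EGFR (ENSG00000146648, 7:55019021-55211628, plus strand, hg38) was the main receptor. Its level was 21.5 and 23.9 FPKM in the 0 Gy libraries and 17.7 and 18.1 FPKM in the 30 Gy libraries, so the groups did not overlap. These levels rest on 3540 to 5087 reads per library. The log2 change was -0.32 ± 0.08 (SE, n = 2 each; limma adjusted p = 0.0435, 95% interval -0.52 to -0.13). EGFR stood above 85.2% of the tested genes at 0 Gy and 80.5% at 30 Gy. The call lies close to the threshold: it was lost in 13 of 18 other settings, among them with every gene above 0 tested (adjusted p = 0.122), with FPKM rescaled to equal sums (0.0799) and without any single library (0.0813 to 0.179), though the change stayed negative in all 18.

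ERBB2 (ENSG00000141736, 17:39687914-39730426, plus strand) stood at 4.20 and 4.62 FPKM at 0 Gy and at 4.01 and 3.40 FPKM at 30 Gy. The groups did not overlap, but the change of -0.20 ± 0.10 (SE) did not pass (adjusted p = 0.223, 95% interval -0.47 to 0.06). ERBB2 overlaps PGAP3 and MIEN1 on the opposite strand, and whether the authors' counting used strand is not given in the sources used here, so reads in the shared stretches are uncertain. PGAP3, which remodels lipid anchors of membrane proteins, fell from 4.98 and 5.19 FPKM to 2.34 and 2.11 FPKM, a log2 change of -0.92 ± 0.09 (SE, limma adjusted p = 0.00601). GRB7, an adaptor 7.50 kb beyond ERBB2 that is often co-amplified with it, changed by 0.50 without passing (adjusted p = 0.0872).

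ERBB3 (ENSG00000065361, 12:56076799-56103505, plus strand) was listed at 0.534 and 0.306 FPKM at 0 Gy and at 0.201 and 0.243 FPKM at 30 Gy, below the filter, and was not tested there. The counts behind these levels were 84 and 47 reads at 0 Gy and 29 and 35 reads at 30 Gy. The first 0 Gy library lay outside the counting range of the second (exact 95% Poisson interval 34.5 to 62.5 reads for 47 reads, counting error only). The groups did not overlap, and by the ratio of mean FPKM ERBB3 was 1.89-fold lower at 30 Gy. When every gene above 0 was tested, the change in log2(FPKM + 1) was -0.21 with a limma adjusted p of 0.469. At such low levels the pseudocount of 1 makes this change smaller than the fold. EGFR made up 80.8% to 83.2% of the summed FPKM of the 3 receptors in the 4 libraries, ERBB2 15.6% to 18.3% and ERBB3 0.917% to 2.04%. These shares rest on the deposited gene lengths (12521 bases for EGFR and 10321 for ERBB2), which were not checked against the transcripts made in these cells. The ratio of EGFR to ERBB2 was 5.11 and 5.18 at 0 Gy and 4.41 and 5.32 at 30 Gy, so the balance between them overlapped between doses.

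EREG (ENSG00000124882, 4:74365143-74388751, plus strand), epiregulin, was the most abundant ligand. Its level was 52.5 and 58.1 FPKM at 0 Gy and 40.7 and 41.5 FPKM at 30 Gy, with 3714 to 5647 reads per library and no overlap between the groups. The log2 change was -0.42 ± 0.07 (SE, limma adjusted p = 0.0217, 95% interval -0.60 to -0.23). The call was lost in 9 of 18 other settings, with every gene above 0 tested (adjusted p = 0.0848) and without any single library (0.0537 to 0.119), where the change ran from -0.49 to -0.34.

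AREG (ENSG00000109321, 4:74445134-74455009, plus strand), amphiregulin, came next among the ligands. It stood at 20.2 and 15.2 FPKM at 0 Gy and at 13.6 and 16.6 FPKM at 30 Gy, and the groups overlapped. The 0 Gy libraries held 578 and 425 reads, and their exact 95% Poisson intervals (532 to 627 and 386 to 467) did not meet, so these replicates differed by more than counting error. The change of -0.20 ± 0.16 (SE) did not pass (adjusted p = 0.407), and its 95% interval of -0.62 to 0.21 includes the change seen for EREG.

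TGFA (ENSG00000163235, 2:70447280-70554193, minus strand), transforming growth factor alpha, was at 6.29 and 7.11 FPKM at 0 Gy and at 6.94 and 6.66 FPKM at 30 Gy. The 30 Gy values lay between the 0 Gy values, and the change of 0.02 had a 95% interval of -0.20 to 0.24 (adjusted p = 0.886). Its sign turned with FPKM rescaled to equal sums (-0.0018) and when replicate 1 was left out at 0 Gy (-0.056) or at 30 Gy (-0.0049). BTC (ENSG00000174808, 4:74744759-74794686, minus strand), betacellulin, was at 5.67 and 5.52 FPKM at 0 Gy and at 4.98 and 4.31 FPKM at 30 Gy, without overlap. Its change of -0.23 ± 0.09 (SE) did not pass (adjusted p = 0.142, 95% interval -0.46 to 0.01).

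HBEGF (ENSG00000113070, 5:140332843-140346631, minus strand), heparin-binding EGF-like growth factor, was the 1 tested member with both 30 Gy libraries above both 0 Gy libraries. It stood at 1.81 and 1.36 FPKM at 0 Gy and at 2.30 and 2.56 FPKM at 30 Gy, from 70 to 123 reads per library. The log2 change of 0.41 ± 0.14 (SE) did not pass over all genes (adjusted p = 0.0931, 95% interval 0.06 to 0.76). By the ratio of means HBEGF was 1.53-fold higher at 30 Gy. In limma's voom on recovered reads the change was 0.63 with an adjusted p of 0.0637. EPGN (ENSG00000182585, 4:74308473-74315307, plus strand), epigen, had 1 and 1 reads at 0 Gy and 0 and 3 reads at 30 Gy. It thus lay at or below the floor of 3 reads, which equals 0.0950 to 0.104 FPKM, and no difference was detectable at this depth.

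**Figure D2:**
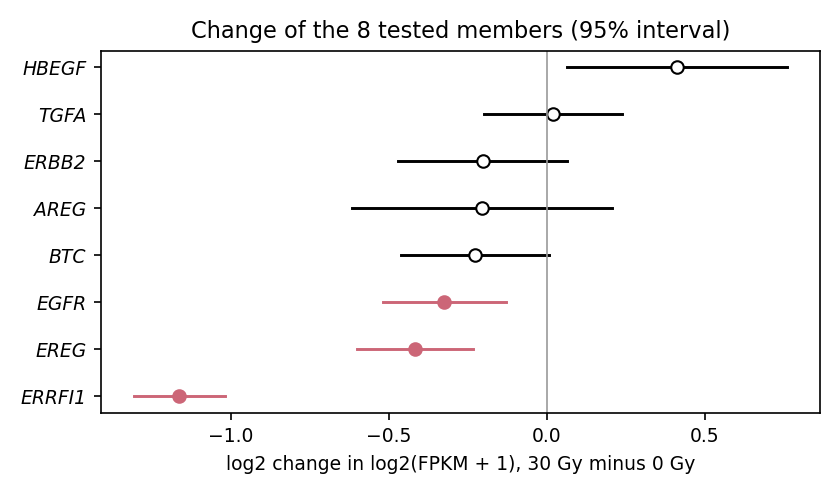
Log2 change of log2(FPKM + 1), 30 Gy minus 0 Gy, for the 8 tested members, with the 95% interval of the limma fit; filled red points passed the adjusted threshold and open points did not. ERRFI1 at -1.16 stands apart from EREG (-0.42) and EGFR (-0.32), and HBEGF (0.41) lies on the other side of 0.

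The makeup of the ligand pool is given as a description, with no test. The 6 ligands summed to 86.4 and 87.3 FPKM at 0 Gy and to 68.6 and 71.8 FPKM at 30 Gy. EREG made up 60.7% and 66.6% of that sum at 0 Gy and 59.3% and 57.9% at 30 Gy, where the gap between doses was smaller than that between the 0 Gy replicates for the closest pair of libraries. HBEGF was a minor ligand at 2.09% and 1.56% at 0 Gy and 3.36% and 3.57% at 30 Gy. TGFA contributed 7.27% and 8.15% at 0 Gy and 10.1% and 9.28% at 30 Gy, while AREG, at 17.4% to 23.3%, and BTC, at 6.0% to 7.27%, overlapped between doses. The FPKM of TGFA itself overlapped between doses, so its larger share at 30 Gy goes with the smaller ligand sum. The summed ligand FPKM was 4.03 and 3.65 times that of EGFR at 0 Gy and 3.87 and 3.97 times at 30 Gy. This ratio overlapped between doses. EREG makes up most of the ligand sum, but AREG differed between the 0 Gy libraries (20.2 and 15.2 FPKM), so the ratio does not follow EREG alone. Of the 5 tested ligands EREG alone passed, and of the tested receptors, EGFR and ERBB2, EGFR alone. ERBB3 was below the filter.

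**Figure D3:**
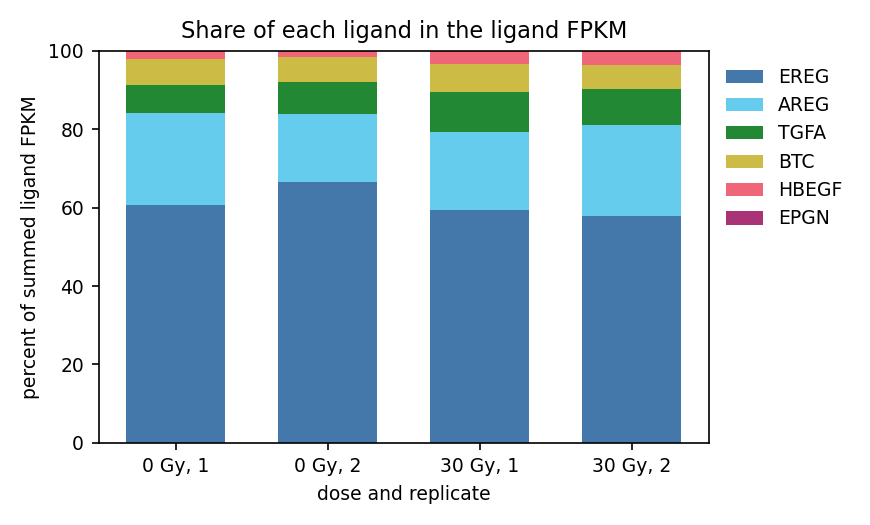
Share of each ligand in the summed FPKM of the 6 ligands, in percent, for each library. EREG fills 57.9% to 66.6% of each bar and AREG is the next largest segment, and the HBEGF segment is wider in both 30 Gy libraries (3.36% and 3.57%) than in the 0 Gy libraries.

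ERRFI1 (ENSG00000116285, 1:8004404-8026308, minus strand) had the largest change of the 8 tested members. Its level was 62.7 and 63.8 FPKM at 0 Gy and 27.4 and 28.0 FPKM at 30 Gy, from 1832 to 4570 reads per library. The replicates of each dose lay close together, and the groups were far apart. The log2 change was -1.16 ± 0.06 (SE, limma adjusted p = 0.00156, 95% interval -1.31 to -1.02), which ranked 42 among 13379 genes by p. The change stayed between -1.18 and -1.15 when any library was left out, and it passed without either 30 Gy library. Without the first or the second 0 Gy library the adjusted p was 0.0673 and 0.0696, in limma fits where none of the 13379 genes did (3422 and 3460 had a p under 0.05 before adjustment), and it was 0.0183 and 0.0189 once the filter on low values was reapplied to the remaining libraries.

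The antisense genes that overlap ERRFI1 and EGFR, AL034417.4 and EGFR-AS1, had 12 to 21 and 3 to 10 reads per library. The ratio of ERRFI1 to EGFR, the inhibitor against its target, was 2.92 and 2.67 at 0 Gy and 1.55 and 1.55 at 30 Gy in FPKM. The order of the members changed accordingly. ERRFI1 ranked above EREG in both 0 Gy libraries and EREG above ERRFI1 in both 30 Gy libraries, while EGFR, AREG, TGFA, BTC, ERBB2, HBEGF, ERBB3 and EPGN followed in that order at both doses. At each dose the lowest library of every member lay above the highest library of the next in the order, so no neighbours overlapped. EGFR and AREG came close, at 21.5 and 20.2 FPKM in the first 0 Gy library. The order across genes rests on the deposited gene lengths, which were not checked against the transcripts made in these cells. By root-mean-square distance in log2(FPKM + 1) centred over the 4 libraries, the tested genes nearest to ERRFI1 were SPON1-AS1 (0.0137), MIR4725 (0.0202) and RPS13P2 (0.0206). These are an antisense RNA, a miRNA and a processed pseudogene with at most 22 reads in any library, and all 3 passed the filter through the 0 Gy libraries alone. SPON1-AS1 and MIR4725 had 0 reads in both 30 Gy libraries, so the size of their change is set by the pseudocount, and nothing is read from the likeness.

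Genes next to the members were examined as far as 500 kb away. AREG, EREG, EPGN and BTC lie in a row on chromosome 4 beside the CXC chemokines, which attract neutrophils. Within 500 kb of EREG, 2 of 7 tested genes, which include the members AREG and BTC, were lower, against 9.06% of all tested genes. CXCL2 fell from 11.0 and 10.3 FPKM to 4.05 and 3.86 FPKM (log2 change -1.23 ± 0.07, SE; limma adjusted p = 0.00225). CXCL5 fell from 56.1 and 59.4 FPKM to 32.1 and 38.1 FPKM (log2 change -0.71, adjusted p = 0.0130). CXCL3 changed by -0.68 and CXCL1 by 0.54 without passing (adjusted p = 0.0610 and 0.121), and CXCL1, CXCL2 and CXCL3 are near-identical copies whose reads may be split uncertainly. MTHFD2L, a mitochondrial folate enzyme 62.0 kb from EREG, changed by -0.02 (adjusted p = 0.906).

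Next to ERRFI1, 2 of 7 tested genes fell, where 9.06% of all tested genes did, and PARK7, 18.9 kb away, changed by -0.03 without passing (limma adjusted p = 0.859). TNFRSF9, a TNF-family receptor 61.2 kb away, fell from 12.5 and 11.0 FPKM to 6.38 and 6.56 FPKM (limma adjusted p = 0.00801), and the clock gene PER3, 159 kb away, fell from 11.4 and 12.7 FPKM to 7.22 and 6.61 FPKM (adjusted p = 0.00928). Next to EGFR, LANCL2 and VOPP1 passed as higher, 2 of 3 tested genes where 10.8% of all were, but LANCL2 lost its call in 10 of 18 other settings and VOPP1 in 14. LANCL2, 154 kb away, stood at 3.87 and 4.03 FPKM at 0 Gy and 5.68 and 5.68 FPKM at 30 Gy (adjusted p = 0.0218), and VOPP1, 224 kb away, at 30.9 and 31.8 FPKM and at 37.1 and 37.4 FPKM (adjusted p = 0.0440). SEC61G on the other side changed by -0.07 (adjusted p = 0.902). Beside ERBB3 6 of 31 tested genes were higher and beside HBEGF 3 of 15, where 10.8% of all were, and none was lower. Beside ERBB2 3 of 19 were lower and beside TGFA 1 of 8, where 9.06% of all were, and none was higher. The windows of AREG, EPGN and BTC overlap that of EREG.

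**Figure D4:**
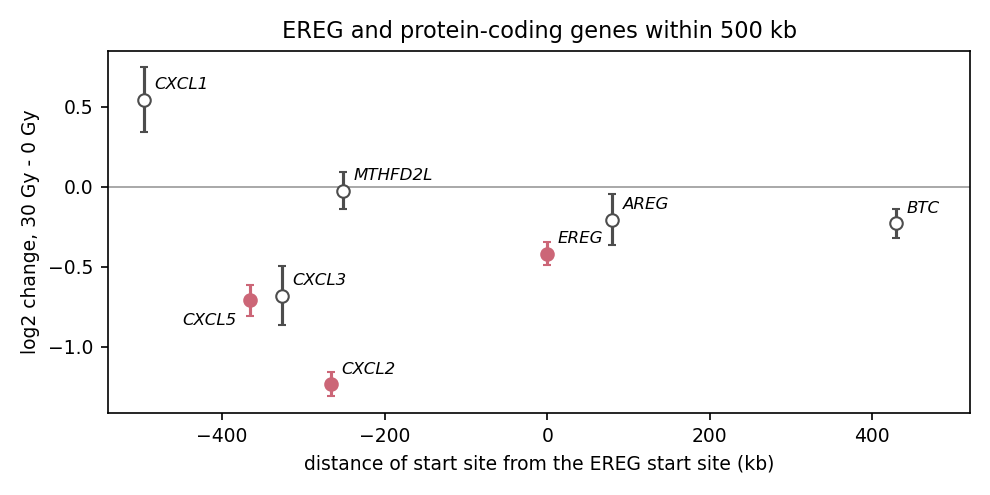
Log2 change (30 Gy minus 0 Gy) of EREG and the tested protein-coding genes within 500 kb, against the distance of each start site from that of EREG in kb, with error bars of 1 SE; filled red points passed the adjusted threshold. CXCL2 (-1.23) and CXCL5 (-0.71) lie lower than EREG (-0.42), while MTHFD2L between them and EREG sits near 0.

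Other genes of the pathway were read from 6 lists of 99 genes, of which 91 were tested. Of these, 10 were higher and 13 lower at 30 Gy, 25.3% called against 19.8% of all tested genes, with a median log2 change of 0.04. Many of these calls lie near the threshold, and the settings in which they were lost are given by list. In the fits without the first or the second 0 Gy library at the original filter every call was lost, so a loss there does not mark a single gene. Among the remaining receptors and ligands, NRG1, a neuregulin that binds ERBB3 and ERBB4, fell from 3.38 and 4.21 FPKM to 1.59 and 2.03 FPKM, a log2 change of -0.77 ± 0.14 (SE, limma adjusted p = 0.0243), and lost its call in 8 of 17 other settings. NRG4 did not pass (-0.34, adjusted p = 0.297). ERBB4 had 0 to 11 reads per library, NRG2 4 to 16 and NRG3 0, and EGF itself was listed at 0.358 to 0.634 FPKM, so these 4 genes were not tested.

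Of 12 tested genes for ligand release and receptor supply, 2 were higher and 1 lower (median log2 change 0.05), 25% called against 19.8% of all tested genes. RHBDF2, the inactive rhomboid iRhom2 that carries ADAM17 to the cell surface, rose from 11.7 and 11.2 FPKM to 17.1 and 16.5 FPKM (log2 change 0.52 ± 0.06, SE; limma adjusted p = 0.0105). ADAM17 itself, the main protease for AREG, EREG, HBEGF and TGFA, was at 6.38 and 6.21 FPKM at 0 Gy and 5.09 and 4.64 FPKM at 30 Gy and did not pass (-0.32, adjusted p = 0.0514). ADAM10, which releases BTC, was at 9.12 and 9.71 FPKM and at 10.8 and 12.1 FPKM (0.26, adjusted p = 0.0933). ADAM12, another protease of the family, rose 1.23-fold and PACS2, a sorting protein linked to ADAM17 recycling, fell 1.45-fold (adjusted p = 0.0473 and 0.0197). Of 18 other settings, the call was lost in 14 for ADAM12, among them median centring (0.0548), in 8 for PACS2 and in 5 for RHBDF2.

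Of 22 tested genes for receptor turnover and inhibition, 3 were higher and 1 lower (median 0.08), 18.2% called, close to the 19.8% of all tested genes. CD2AP and SH3KBP1, related adaptors that link CBL to endocytosis, rose from 7.76 and 9.38 FPKM to 12.8 and 13.8 FPKM and from 21.4 and 22.5 FPKM to 27.5 and 27.9 FPKM (limma adjusted p = 0.0232 and 0.0274). STAM, of the endosomal sorting machinery, rose 1.26-fold (adjusted p = 0.0363). PTPN2, a phosphatase that acts on EGFR, fell from 5.78 and 5.37 FPKM to 4.11 and 3.93 FPKM (adjusted p = 0.0323). CBL, the ubiquitin ligase that marks EGFR for breakdown, changed by 0.28 without passing (adjusted p = 0.118). Of 18 other settings, the call was lost in 9 for CD2AP, 11 for SH3KBP1, 12 for STAM and 11 for PTPN2.

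The adaptor and RAS-ERK list had 2 higher and 2 lower genes among 20 tested (median 0.06), 20% called, close to the 19.8% of all tested genes. SHC1, which couples phosphorylated receptors to RAS, fell from 116 and 122 FPKM to 80.0 and 75.0 FPKM, a log2 change of -0.61 ± 0.06 (SE, limma adjusted p = 0.00706). PTPN11, the phosphatase SHP2, fell 1.25-fold (adjusted p = 0.0405). KSR1, a scaffold of the RAF-MEK-ERK cascade, rose from 1.08 and 1.06 FPKM to 2.90 and 2.51 FPKM (adjusted p = 0.0142), and RASA1, a RAS inactivator, rose 1.39-fold (adjusted p = 0.0177). GRB2, whose protein binds the receptors directly, changed by -0.02 (adjusted p = 0.829). SHC1 lost its call in 2 of 18 other settings, RASA1 in 9 and PTPN11 in 11, and KSR1 in 8 of 17.

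On the PI3K, AKT, PLC and STAT list, 2 of the 15 tested genes reported here were lower (median -0.07), 13.3% called, below the 19.8% of all tested genes. STAT3 fell 1.31-fold and PIK3CB, a PI3K catalytic subunit, 1.26-fold (limma adjusted p = 0.0324 and 0.0451), and these calls were lost in 11 and 12 of 18 other settings, among them FPKM rescaled to equal sums (0.0644 and 0.0840). The kinases AKT1 and AKT2, which act below PI3K, had changes of -0.21 and 0.18 that did not pass (adjusted p = 0.0765 and 0.159).

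Genes that respond to ERK activity went both ways, with 3 higher and 6 lower of 20 tested (median 0.02), 45% called against 19.8% of all tested genes. The phosphatases DUSP4 and DUSP5, which switch ERK off, fell from 18.5 and 18.7 FPKM to 12.1 and 11.1 FPKM and from 13.4 and 14.1 FPKM to 8.5 and 8.20 FPKM (limma adjusted p = 0.00773 and 0.00683). MYC fell from 112 and 105 FPKM to 72.7 and 63.7 FPKM (adjusted p = 0.0113). IER3, an immediate early gene, rose from 52.3 and 50.1 FPKM to 97.1 and 84.4 FPKM (adjusted p = 0.00718). The others that passed, named to complete the count, were FOSL1, EGR1 and PHLDA1, lower by 0.44, 0.43 and 0.27 on the log2 scale, and JUN and ETV4, higher by 0.37 and 0.43. DUSP6, the cytoplasmic ERK phosphatase, changed by 0.31 without passing (adjusted p = 0.113), and CCND1 by 0.03 (adjusted p = 0.774). Of 18 other settings, DUSP5 lost its call in 2, IER3 in 3, DUSP4 and MYC in 4, FOSL1 in 6, EGR1 in 8, JUN in 9, ETV4 in 10 and PHLDA1 in 12.

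**Figure D5:**
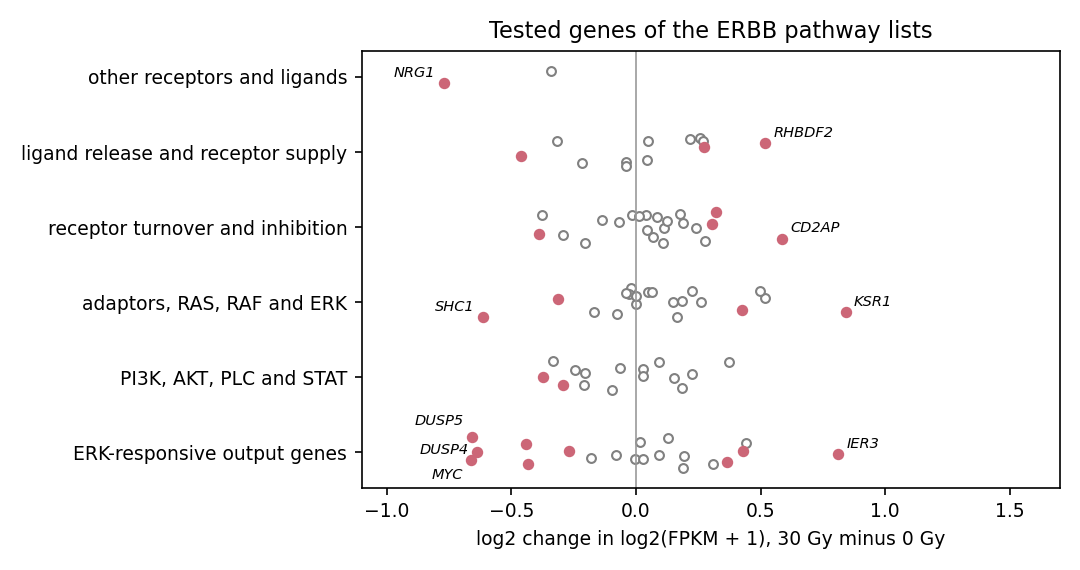
Log2 change (30 Gy minus 0 Gy) of the 91 tested genes on the 6 pathway lists, 1 point per gene, filled red where the gene passed the adjusted threshold and named where such a gene changed by more than 0.5; the vertical scatter within a list carries no value. KSR1 (0.84) lies farthest to the right and NRG1 (-0.77) farthest to the left.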

How the data were processed

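The authors deposited a table of FPKM values for 58735 genes in 4 libraries, with gene positions and lengths. Total RNA (0.2 ug per library) was extracted with Trizol, per the labels' protocols, and hg38 is the build in the submitters' processing notes. Which aligner, counter, strand setting and annotation release the authors used was not given in the sources used here. Positions of all 10 members matched GENCODE release 29. Each FPKM multiplied by its gene's length fell on whole steps, 1 step size per library, for 100% of values above 0 (tolerance 0.001), which gave whole reads. Intervals and the floor of 3 reads cover counting error only.

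Genes reaching 1 FPKM in 2 or more libraries (13379) were tested on log2(FPKM + 1) with limma 3.58.1 in R 4.3.3 (lmFit, eBayes with trend, two-sided, no covariate, 2 residual and 2.98 prior degrees of freedom), adjusted by Benjamini-Hochberg. The pseudocount of 1 understates changes of low genes. Log2 changes are 30 Gy minus 0 Gy, and folds are ratios of mean FPKM. A permutation test of 2 against 2 libraries cannot give a two-sided p under 0.333 and was not used. The fit was also run on simulated reads with the same spread set for every gene, which real replicates need not follow, so nothing about these libraries is read from it.

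The members and lists were chosen with earlier results of these data known, and 1 list gene is not reported here or counted in its list. The text names the members, up to 4 called genes per list with the largest change (2 if none passed), and the 3 genes nearest to the most changed member in pattern; other list genes and neighbours were named after their values were seen. Alternatives were another pseudocount (0.1), other filters, 3 scalings, eBayes settings, a replicate block, each library left out, and limma's voom with a trimmed mean of M-values scaling on the recovered reads. Promoter windows came from RefSeq (GRCh38.p14) and held 9 of 10 members; protein sequences were not used here.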

Additional observations from a re-analysis of the deposited data

How the results depend on the processing

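Of 18 alternatives (14 planned, 4 added after seeing the data, which reapply the low-value filter when a library is left out), ERRFI1 kept its call in 16, EREG in 9 and EGFR in 5, and all 3 stayed lower at 30 Gy in each. Members called lower numbered 3 in the main test, 1 with no filter and 0 to 1 with a library left out; members called higher were 0 throughout. Over all genes tested, 1442 were higher and 1212 lower, against 352 and 252 with no filter, 875 higher with FPKM rescaled to equal sums (which passes 18145 genes through the filter), 2192 and 1994 with voom on recovered reads, and with a library left out 0 to 484 and 0 to 414, or, with the filter reapplied, 391 and 201 or 394 and 229 (0 Gy replicate 1 or 2), 661 and 656 or 753 and 658 (30 Gy replicate 1 or 2). Pathway genes called were 10 higher and 13 lower, against 1 and 3 with no filter, 5 and 8 rescaled, 21 and 20 with voom, and 0 to 3 and 0 to 8 with a library left out. TGFA turned sign with FPKM rescaled (-0.0018) and without 0 Gy replicate 1 (-0.056) or 30 Gy replicate 1 (-0.0049), and reached 0.098 without 0 Gy replicate 2. Apart from the larger number of genes tested, the cause was not tested. Rescaling to equal sums also raised every value above its deposited FPKM. The filter and the pseudocount of 1 therefore acted at a lower deposited level there. Of the genes called in that setting 50.4% were higher at 30 Gy, against 54.3% in the main test. With a library left out, its group has a lone library that is assumed to vary like the other group. Each left-out library enters the 18 alternatives under the original and the reapplied filter, so these settings are not independent of each other.

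Replicate numbers did not pair the samples: deviations of same-numbered libraries correlated at -0.026. With the replicate block 1081 genes were higher and 845 lower, 2 members were lower, EGFR missed the threshold (adjusted p = 0.0558), and 8 pathway genes were higher and 10 lower. A quasi-likelihood count test was planned and not run, because the deposited unit is FPKM. Depth limits ERBB3, HBEGF and EPGN most, at 29 to 84, 70 to 123 and 0 to 3 reads per library.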
